A study of Mus musculus with 6 samples.

Results

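Expression of the MHC class II antigen presentation pathway was followed in liver RNA of mice fed a methionine- and choline-deficient (MCD) diet. Genes were taken by symbol from the deposited table of all pools, where H2-Aa, H2-Ab1, H2-Eb1, Cd74, H2-DMa, H2-DMb1, Ciita and Cd86 are 8 of 40481 genes, and all 8 had enough reads to be tested. The question addressed was how hepatic gene expression under this diet differs between mice that can and cannot assemble chylomicrons in the intestine. RNA-Seq was available for 3 control pools and 3 *Mttp-IKO* pools.

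All mice were adult males on the C57BL/6 background that carried floxed Mttp alleles and Cre-ERT2, a Cre recombinase that tamoxifen switches on, driven by the promoter of Villin, a gene of intestinal epithelium. *Mttp-IKO* mice received tamoxifen, and the controls were littermates given vehicle, although the labels call them wild type. The MCD diet began after the injections and lasted 3 weeks, and food was withdrawn for 4 h before the liver was taken. Each library was a pool of RNA from several mice, so the p-values measure the spread between pools. Every control pool lacked tamoxifen, and the effect of the drug and that of the deletion cannot be told apart. The deletion is not in the liver, so liver Mttp would not check the labels.

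MHC class II molecules present peptides from proteins that a cell has taken up, and CD4+ T cells read them. An alpha and a beta chain pair in the endoplasmic reticulum around the invariant chain, Cd74, which blocks the groove until endosomal proteases, chiefly cathepsin S, cut it down. H2-DM, a dimer of H2-DMa and H2-DMb1 or H2-DMb2, then exchanges the remaining fragment for peptide. Ciita is the coactivator that switches the whole set on, by joining RFX, CREB and NF-Y proteins at the X and Y boxes of the class II promoters. In liver, dendritic cells, B cells, Kupffer cells and monocyte-derived macrophages carry most class II. Cd86 is a costimulatory ligand for Cd28 on T cells and has its own regulation outside the X and Y boxes.

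Promoter sequence is shown for 2 member chain genes, because the X and Y boxes are where Ciita acts on genes of this family. RefSeq promoters (GRCm38.p6, 250 bases before to 50 after each start) held entries for 4 members: H2-Aa, H2-Eb1, H2-DMa and H2-DMb1. The letters GCAAC, the core of the X1 box, and ATTGG, the core of the Y box, were searched on both strands. In the lines that follow, read 5′ to 3′ on the strand of the gene, the pair of cores on that strand is in capitals. An ATTGG of H2-Eb1 on the opposite strand, at position -35 from the start, is left in lower case. H2-Eb2, a second beta chain gene that is no member, is shown for comparison.
H2-Aa, chr17:34287842-34287929, minus strand: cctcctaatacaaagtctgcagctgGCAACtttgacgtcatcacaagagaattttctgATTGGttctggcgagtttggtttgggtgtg
H2-Eb1, chr17:34305751-34305837, plus strand: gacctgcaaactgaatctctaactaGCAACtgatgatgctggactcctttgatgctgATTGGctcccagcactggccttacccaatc
H2-Eb2, chr17:34325518-34325604, plus strand: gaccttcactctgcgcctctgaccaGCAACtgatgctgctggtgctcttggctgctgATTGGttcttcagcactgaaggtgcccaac

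The cores were 28 bases apart in H2-Aa and 27 in both H2-Eb1 and H2-Eb2. H2-DMb1 held ATTGG 28 bases after GTAAC, a form of the X1 core that was added to the search as GNAAC after this promoter had been read; its stretch overlaps an annotated untranslated region and is not shown. Of genes that are no members, H2-Oa and H2-Ob also held such a pair, 28 and 25 bases apart, and are not shown. H2-DMb2, also no member, held no pair within 30 bases in its entry, which lies within the gene in the Ensembl annotation. Neither of the 2 promoter entries of H2-DMa, both of which lie upstream of the gene start in the Ensembl annotation, held a pair within 30 bases. These entries end at 34122881 and 34125567 on chromosome 17, and the gene starts at 34135182. The sequence at that start was therefore not searched. Of all 32851 promoters of this length, 35.2% held GCAAC and 37.4% held ATTGG on either strand, and 4.16% held both within 30 bases. GNAAC followed by ATTGG on the strand of the gene, with 25 to 28 bases between, occurred in 116 promoters (0.353%). That spacing was chosen after the class II promoters had been seen, so the share describes how uncommon the letters are and tests nothing.

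**Figure D1:**
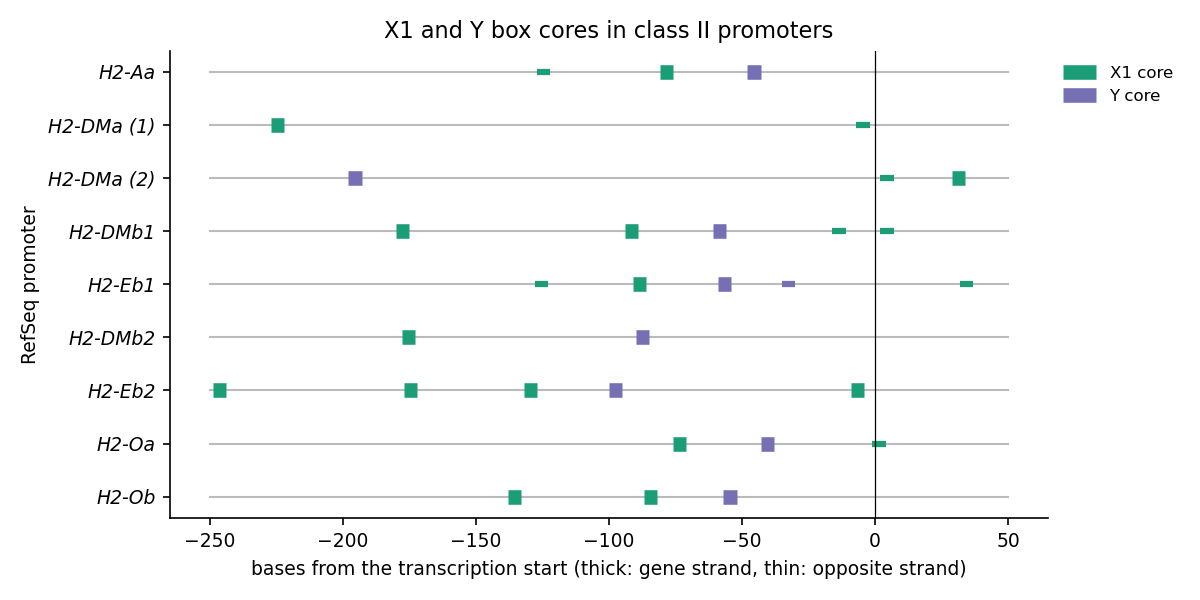
Positions of the X1 core (GNAAC) and the Y core in the promoters of class II genes with a RefSeq entry, in bases from the annotated start (horizontal axis), with 1 row per promoter, thick marks for the gene strand and thin marks for the opposite strand. In H2-Aa, H2-Eb1 and H2-DMb1 an X1 core lies upstream of the Y core, with 27 or 28 bases between. The H2-DMa entries, which do not cover the gene start of the Ensembl annotation, and the H2-DMb2 entry hold no such pair.

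The pools held 25271585 to 36238734 reads assigned to genes, and the limit set by 3 reads, for a gene with a count of 0, was 0.0828 to 0.119 CPM (reads relative to the total of the pool), for counting error only. Several pools stood apart. Control pools 1 and 2 contained striated muscle RNA, with 98.5 and 766 CPM summed over the muscle markers, compared with 0.461 to 1.22 CPM in the *Mttp-IKO* pools and 0.875 CPM in control pool 3. *Mttp-IKO* pool 3 had 0.291% of its reads on small RNA genes, compared with 1.92 to 3.51% in the other 5. The part of either in the results was not tested, and the values without each pool are given with the calls.

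All 3 members that encode chains of the classical class II molecules I-A and I-E were lower in *Mttp-IKO* livers, by 4.32- to 4.54-fold. In bulk liver RNA, fewer class II-bearing cells and less class II RNA per cell cannot be told apart. Levels are CPM scaled by TMM (trimmed mean of M values). H2-Aa (GRCm38, chr 17, 34282744 to 34287827), the alpha chain of I-A, stood at 100.1, 39.9 and 66.9 CPM in control pools 1 to 3 and at 17.2, 18.45 and 12.2 CPM in *Mttp-IKO* pools 1 to 3. H2-Ab1 (chr 17, 34263209 to 34269418), the I-A beta chain, had 137, 56.6 and 95.5 CPM in controls and 22.9, 23.6 and 17.7 CPM in *Mttp-IKO*. H2-Eb1 (chr 17, 34305877 to 34316199), the beta chain of I-E, had 91.6, 44.4 and 65.5 CPM and then 14.6, 17.8 and 11.9 CPM. In each of them every *Mttp-IKO* pool lay below every control pool, and the lowest control was at least 2.16 times the highest *Mttp-IKO* pool. Control pool 1 was the highest and control pool 2 the lowest.

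The fitted log2 fold change of H2-Aa was -2.11 (95% interval -2.88 to -1.34, 4.32-fold lower, adjusted p = 0.0222 by edgeR's quasi-likelihood test with Benjamini-Hochberg adjustment over 17287 genes). That of H2-Ab1 was -2.17 (-2.89 to -1.45, 4.51-fold lower, adjusted p = 0.0184 by the same test). H2-Eb1 differed by -2.18 (-2.84 to -1.53, 4.54-fold lower, adjusted p = 0.0175, edgeR). The 3 intervals overlap almost entirely. The partner of H2-Eb1, H2-Ea-ps, is annotated as a polymorphic pseudogene and had 0 reads in all 6 pools. C57BL/6 mice are known to lack I-E at the cell surface.

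Cd74 and the H2-DM genes were also lower. Cd74, on chromosome 18, was the most abundant member at 317, 130.3 and 208 CPM in controls and 65.5, 78.2 and 56.2 CPM in *Mttp-IKO*. H2-DMa (chr 17, 34135182 to 34139101) had 12.99, 5.52 and 8.75 CPM in controls and 3.06, 2.26 and 2.14 CPM in *Mttp-IKO*. H2-DMb1 (chr 17, 34153072 to 34160230) had 14.5, 6.35 and 11.03 CPM and then 3.74, 2.57 and 2.60 CPM. The genotypes did not overlap for any of the 3, and control pools 1 and 2 were again the extremes.

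The fold change of Cd74 was the smallest among the genes that passed the test, with a log2 value of -1.71 (95% interval -2.44 to -0.98, 3.28-fold lower, adjusted p = 0.0324, edgeR). H2-DMa differed by -1.86 (-2.64 to -1.08, 3.64-fold lower, adjusted p = 0.0306, edgeR), and H2-DMb1 by -1.83 (3.57-fold lower, adjusted p = 0.0300, edgeR).

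Ciita (chr 16, 10488178 to 10527564), the master coactivator, had the largest fold change of the 8 members. It had 13.2, 5.55 and 10.6 CPM in controls (532, 200 and 340 reads) and 1.55, 2.09 and 2.10 CPM in *Mttp-IKO* (48, 61 and 50 reads). The lowest control pool was 2.64 times the highest *Mttp-IKO* pool. The log2 fold change was -2.36 (95% interval -3.15 to -1.56, 5.12-fold lower, adjusted p = 0.0186, edgeR). Of its exon bases, 2.11% overlap Dexi on the opposite strand, and whether the counting used strand is not stated.

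Cd86 (chr 16, 36603869 to 36666081), the costimulatory ligand, did not pass the test. It had 6.94, 3.60 and 4.40 CPM in controls (280, 130 and 141 reads) and 3.26, 3.88 and 2.68 CPM in *Mttp-IKO* (101, 113 and 64 reads). The genotypes overlapped, since *Mttp-IKO* pool 2 exceeded control pool 2. The log2 fold change was -0.61 with an interval from -1.30 to 0.088 (adjusted p = 0.274, edgeR), so a fall of more than 2-fold is within the interval.

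**Figure D2:**
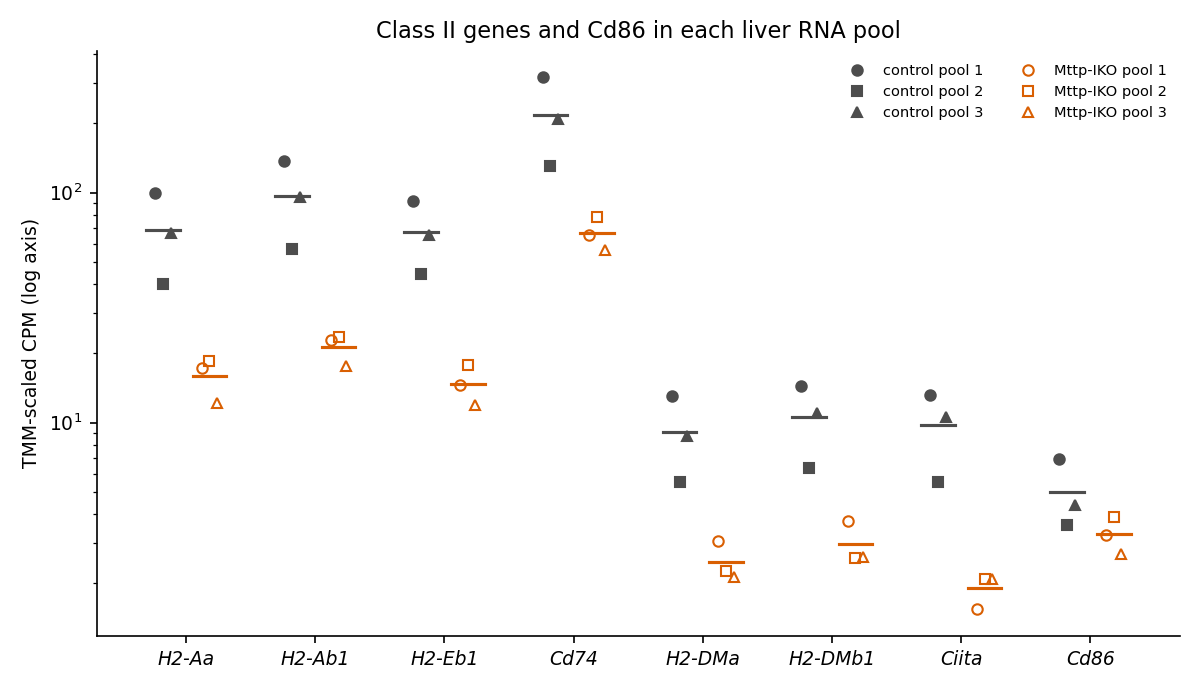
TMM-scaled CPM (vertical axis, log scale) of the 8 members in each of the 3 control and 3 *Mttp-IKO* pools, with a symbol shape for each pool number and horizontal lines for the group means. The genotypes are separate for 7 genes and overlap for Cd86, and control pool 1 is the highest and control pool 2 the lowest control throughout.

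Thus 7 of 8 members passed the test, all lower in *Mttp-IKO*, where 3.09% of all genes tested did so (0.92% passed as higher). Genotypes without overlap and lower in *Mttp-IKO* were found for the same 7, compared with 16.5% of all genes tested. The median log2 fold change was -1.99 over the 8 members and 0.0057 over all genes. Most calls were lost when a pool was left out. With control pool 1, control pool 3, *Mttp-IKO* pool 1 or *Mttp-IKO* pool 2 left out, 0 of 8 passed (0.085%, 0.0951%, 0.178% and 0.0% of all genes tested passed as lower, in that order), with adjusted p of 0.0584 to 0.132 for the 7 genes (edgeR), and all 7 kept an unadjusted p under 0.05. In the same order, 2476 of 17652, 2539 of 17869, 4457 of 17943 and 3221 of 17873 genes met that unadjusted threshold, in either direction. With all pools, 3977 of 17287 genes met it, the background for the unadjusted counts given below. Without *Mttp-IKO* pool 3, the library with few small RNA reads, 4 passed (3.15% of all genes), and without control pool 2, the one richest in muscle RNA, 7 did (4.34%). With all pools, 7 of 8 passed by DESeq2 (7.74% of all genes), and 5 by limma-voom (1.8%). With edgeR 7 passed with DESeq2's size factors (2.85%), upper quartile scaling (3.42%), total counts (5.25%), no filter (2.86%), a filter at 1 CPM (3.87%), the replicate number as a block (2.6%) and the trend with gene length removed (3.58%). The log2 fold changes of the 7 genes stayed between -2.66 and -1.36 whichever pool was left out.

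**Figure D3:**
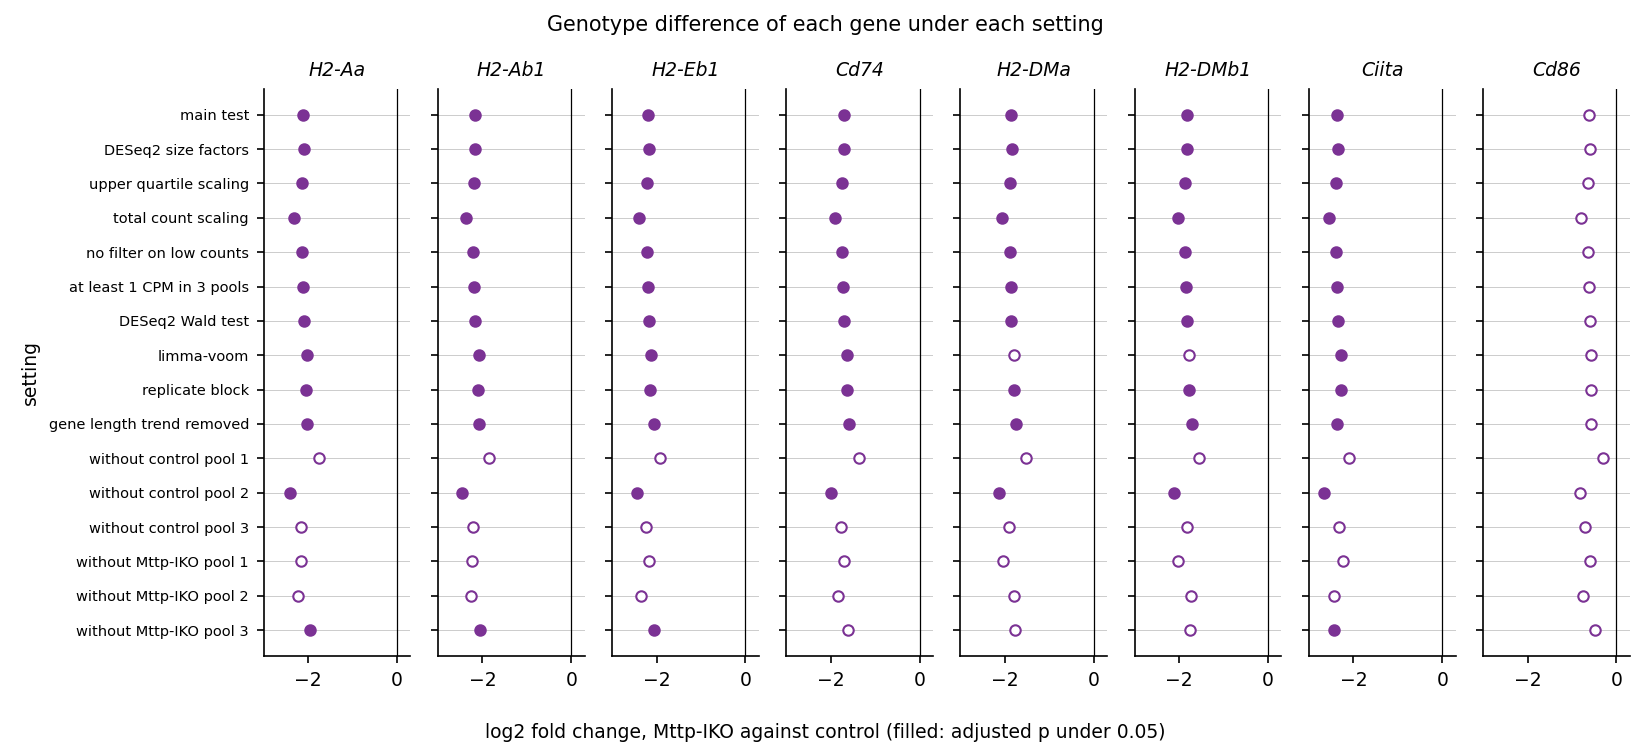
Log2 fold change of each member (horizontal axis, *Mttp-IKO* against control) under the 15 alternative settings and the reported one, with filled points where the adjusted p was under 0.05. Every value of the 7 genes is -1.36 or lower, whereas the points lose their fill mainly where a pool was left out.

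Levels of different genes were compared per kilobase of exon. In controls Cd74 was the highest at 155 ± 66.5 CPM per kb (SD, n = 3), followed by H2-Ab1 at 58.9 ± 24.6, H2-Eb1 at 56.7 ± 20.0 and H2-Aa at 36.8 ± 16.1 CPM per kb. The ranges of the 3 chain genes over pools overlapped, but H2-Aa was the lowest of them within each control pool. The mean ratio of H2-Ab1 to H2-Aa per length was 1.61 in controls. H2-DMb1 (7.15 ± 2.75 CPM per kb) and H2-DMa (5.54 ± 2.28 CPM per kb) came next and had overlapping ranges, as did Ciita (1.86 ± 0.740 CPM per kb) and Cd86 (1.36 ± 0.476 CPM per kb). Within each control pool H2-DMb1 lay above H2-DMa, and Ciita above Cd86.

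In *Mttp-IKO* the order was the same down to H2-DMa, with Cd74 at 47.3 ± 7.84 CPM per kb and the chains at 13.1 ± 1.95 (H2-Ab1), 12.5 ± 2.49 (H2-Eb1) and 8.52 ± 1.76 CPM per kb (H2-Aa). Ciita and Cd86 changed places at the bottom, at 0.364 ± 0.0601 and 0.894 ± 0.163 CPM per kb. Summed over the 8 members, the level was 693, 292 and 471 CPM in control pools 1 to 3 and 132, 149 and 108 CPM in the *Mttp-IKO* pools.

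The proportions of H2-Ab1 to the other chains, H2-DM and Ciita overlapped between genotypes. H2-Ab1 was 1.37 to 1.43 times H2-Aa in control pools and 1.28 to 1.45 times in *Mttp-IKO* pools, and its ratios to H2-Eb1, H2-DMa, H2-DMb1 and Ciita overlapped too. Its ratio to Cd74 did not, at 0.433, 0.434 and 0.459 in controls and 0.349, 0.301 and 0.315 in *Mttp-IKO*. The ratio of H2-Ab1 to Cd86 was 19.8, 15.7 and 21.7 in controls and 7.02, 6.08 and 6.59 in *Mttp-IKO*. Both separations had an exact two-sided permutation p of 0.1, the smallest that 3 pools against 3 allow, and 0.16 after Benjamini-Hochberg adjustment over the 16 ratios computed.

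Ptprc (CD45), which is on all leukocytes, itself had a log2 fold change of -1.13 that missed the threshold (adjusted p = 0.0515, edgeR), so each member was also taken relative to it within a pool. H2-Ab1 was 2.10, 1.75 and 1.75 times Ptprc in control pools and 0.876, 1.10 and 0.802 times in *Mttp-IKO* pools. Ciita was 0.202, 0.171 and 0.194 times Ptprc in controls and 0.059, 0.098 and 0.095 times in *Mttp-IKO*. Relative to Ptprc, 7 members remained lower with no overlap between genotypes, by 0.55 (Cd74) to 1.20 (Ciita) on the log2 scale. Cd86 went the other way, at 0.106, 0.111 and 0.081 times Ptprc in controls and 0.125, 0.181 and 0.122 times in *Mttp-IKO*. Every one of these 8 comparisons also had the smallest possible exact permutation p of 0.1 (0.16 after adjustment). Laptm5 and Coro1a, the other leukocyte markers listed, had larger falls than Ptprc. Their log2 fold changes were -1.24 and -1.55 (adjusted p = 0.0581 and 0.0415, edgeR). Ratios of the members to these genes were not computed, so the separation is given for Ptprc alone.

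**Figure D4:**
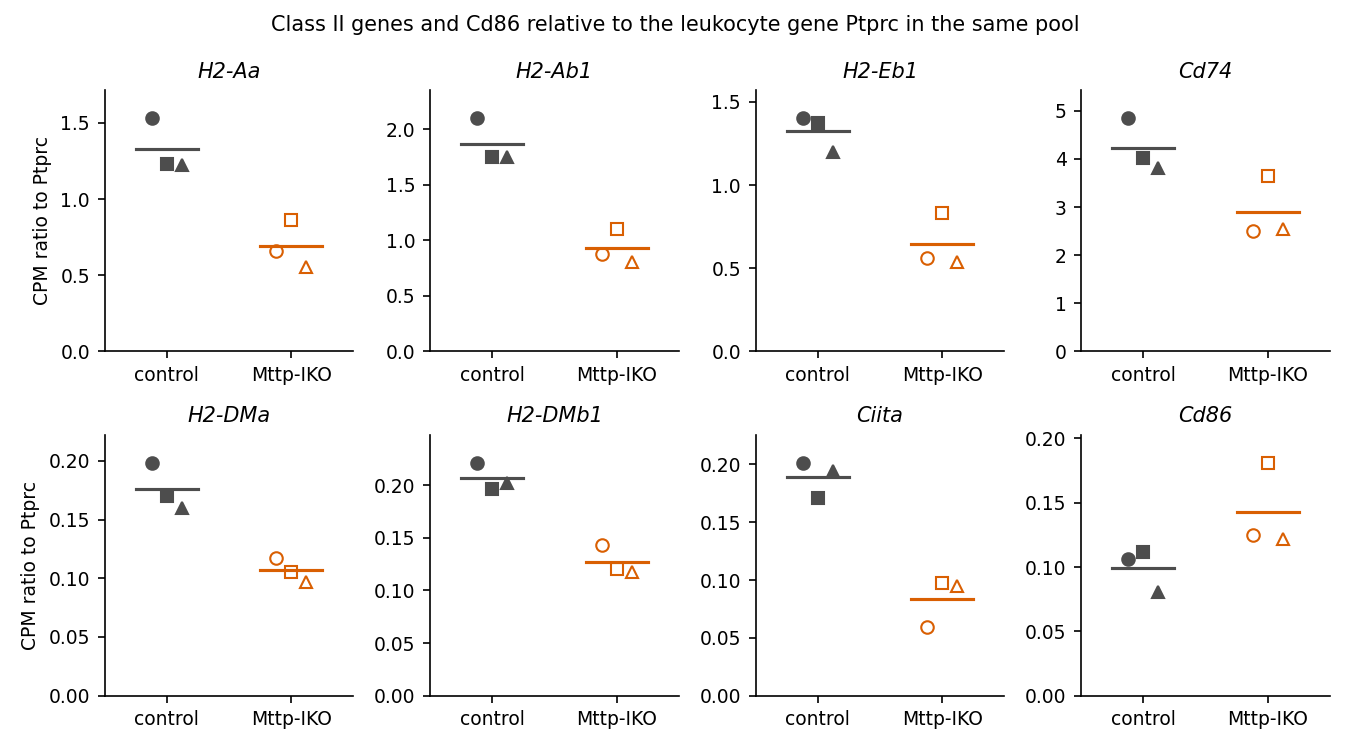
Level of each member divided by that of Ptprc in the same pool (vertical axis, linear from 0 in each panel), for 3 control and 3 *Mttp-IKO* pools, with symbol shapes for the pool numbers and horizontal lines for the means. The ratio is lower in every *Mttp-IKO* pool for 7 members and higher in every *Mttp-IKO* pool for Cd86.

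Markers of the cells that carry class II differed between genotypes to different extents and not all in the direction of the members. Their part in the class II values was not tested. Of the dendritic cell markers, 7 of 12 tested passed the test, all 7 as lower (3.09% of all genes tested), with a summed level of 56.9 to 108 CPM in controls and 31.5 to 43.7 CPM in *Mttp-IKO*. Among them, Itgax (CD11c) had a log2 fold change of -2.78 (adjusted p = 0.0248, edgeR), Flt3, the growth factor receptor of dendritic cells, one of -2.37 (adjusted p = 0.0241, edgeR) and Ccr7, the lymph node homing receptor, one of -2.73 (adjusted p = 0.0293, edgeR). Zbtb46 and Clec9a, markers of conventional dendritic cells, differed by 0.14 and 0.22 on the log2 scale, overlapped between genotypes and did not pass (adjusted p = 0.626 and 0.649, edgeR). Relative to Itgax, H2-Ab1 overlapped between genotypes, at 2.60, 3.12 and 1.90 in controls and 6.95, 3.01 and 2.72 in *Mttp-IKO*; this ratio was added after the values had been seen.

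Of the recruited macrophage markers, 9 of 9 had a negative log2 fold change and 5 passed the test (3.09% of all genes passed as lower), among them Ccr2, the monocyte chemokine receptor, at -2.20 and Cx3cr1 at -2.78 on the log2 scale, and the summed level was 446 to 1183 CPM in controls and 223 to 266 CPM in *Mttp-IKO*. Gpnmb and Lyz2 had the highest levels in controls and differed by -2.45 and -1.80 (adjusted p = 0.0588 and 0.0285, edgeR). Gpnmb thus did not pass, nor did Itgam, Spp1 and Cd9, and the genotypes overlapped for Spp1 and Cd9. The Kupffer cell markers had sums of 486 to 716 and 362 to 789 CPM, which overlap, with 0 of 9 passing as lower by edgeR (3 at an unadjusted p under 0.05), and with 1 passing as lower and 2 as higher by DESeq2. By sign, 5 of the 9 were lower and 4 higher. Cd5l and C1qb, the most abundant of them in controls, differed by -0.74 and -0.91 (adjusted p = 0.214 and 0.103, edgeR). Timd4, a marker of resident Kupffer cells, was higher by 1.16 on the log2 scale (adjusted p = 0.0425, edgeR), and this call was lost under the replicate block, total count scaling and limma-voom, and without control pool 1, control pool 3, *Mttp-IKO* pool 1 or *Mttp-IKO* pool 2. B cell markers were scarce in both genotypes (6.68 to 7.41 and 3.16 to 5.08 CPM in sum), and 0 of 7 tested passed by edgeR, with 2 at an unadjusted p under 0.05 and 2 passing by DESeq2. No list had all its defining markers at 0. Like the class II calls, those of the dendritic cell and macrophage lists fell to 0 when control pool 1 or 3 or *Mttp-IKO* pool 1 or 2 was left out.

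Beyond the 8 members, 44 further genes of the pathway were listed by role, and 40 had enough reads. Of these, 5 passed the test and all were lower in *Mttp-IKO*. A negative log2 fold change was found in 33 of 40, compared with 8557 of all 17287 genes tested, and the median was -0.55. The share that passed as lower in all genes tested was again 3.09%. The count fell to 0 without control pool 1, control pool 3, *Mttp-IKO* pool 1 or *Mttp-IKO* pool 2 (12 to 18 at an unadjusted p under 0.05, compared with 2476 to 4457 of all genes tested), was 2 without *Mttp-IKO* pool 3 and 7 without control pool 2. By DESeq2 11 passed as lower and 2 as higher (Rfxank and Cd28), and by limma-voom 2 passed, both as lower. H2-Eb2, the only further chain gene tested, had 27, 14 and 20 reads in controls and 4, 0 and 0 in *Mttp-IKO*, with a fitted log2 fold change of -3.48 that rests on these few reads. It missed the threshold by edgeR (adjusted p = 0.0709) and passed as lower by DESeq2 and by limma-voom.

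Among the chaperones, H2-DMb2, the other beta chain of H2-DM, was at 2.43, 1.94 and 2.09 CPM in controls and 0.516, 0.995 and 0.419 CPM in *Mttp-IKO* (log2 fold change -1.73, adjusted p = 0.0496, edgeR). It is a close paralog of H2-DMb1, and reads that fit both genes were not counted for either. H2-Oa and H2-Ob form H2-DO, which restrains H2-DM chiefly in B cells. H2-Oa had 19, 11 and 22 reads in controls and 7, 2 and 0 in *Mttp-IKO*, and H2-Ob had 39, 16 and 48 and then 15, 12 and 8 reads. Neither passed (adjusted p = 0.159 and 0.201, edgeR) at this depth.

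Of 11 transcriptional regulators tested, 2 passed by edgeR, with 6 at an unadjusted p under 0.05 (3977 of 17287 over all genes). By DESeq2 4 passed, 3 as lower and Rfxank as higher. Irf8, which specifies conventional dendritic cells, was at 43.5, 20.9 and 34.2 CPM in controls and 14.4, 12.3 and 12.9 CPM in *Mttp-IKO* (log2 fold change -1.32, adjusted p = 0.0378, edgeR). Spi1 (PU.1), a myeloid and B cell factor, was at 44.6, 24.3 and 38.7 and then 17.6, 14.3 and 11.1 CPM (-1.32, adjusted p = 0.0390, edgeR). Genotypes did not overlap for either gene. The RFX subunits that bind the X box were chosen for mention after their values had been seen, and 0 of 3 passed by edgeR. Rfx5 differed by -0.25, Rfxap by -0.12 and Rfxank by 0.66 on the log2 scale (adjusted p = 0.413, 0.828 and 0.0907, edgeR).

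Interferon gamma is the main inducer of Ciita outside constitutively presenting cells. Of the 5 tested genes of its signaling list 0 passed by edgeR or DESeq2, with 1 at an unadjusted p under 0.05. Ifng itself, also named after its values were seen, had 0, 0 and 2 reads in controls and 0, 2 and 0 in *Mttp-IKO*, too few to test.

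Of the 9 processing genes 0 passed by edgeR, with 4 at an unadjusted p under 0.05 and 4 passing by DESeq2. Ctss, the cathepsin that cuts Cd74, was at 214, 93.0 and 210 CPM in controls and 63.5, 71.3 and 31.5 CPM in *Mttp-IKO*, without overlap (log2 fold change -1.64, adjusted p = 0.0621, edgeR). Ifi30, the thiol reductase that opens antigens for class II, had 71.8, 32.3 and 58.9 CPM and then 35.1, 24.1 and 14.9 CPM, which overlap (-1.14, adjusted p = 0.122, edgeR).

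The 7 tested genes of surface turnover and costimulation all had a negative log2 fold change, and 2 passed the test. Cd83, which stabilizes class II at the surface of mature dendritic cells, was at 6.57, 4.82 and 7.71 CPM in controls and 2.03, 2.26 and 1.09 CPM in *Mttp-IKO* (log2 fold change -1.82, adjusted p = 0.0302, edgeR). Cd274 (PD-L1), an inhibitory ligand, was at 9.32, 4.82 and 8.81 and then 2.61, 2.67 and 2.60 CPM (-1.54, adjusted p = 0.0323, edgeR). Cd80, the other ligand of Cd28, did not pass (-0.49, adjusted p = 0.481, edgeR). Cd40, with 71, 23 and 48 reads in controls and 19, 15 and 1 in *Mttp-IKO*, did not pass either (-1.69, adjusted p = 0.201, edgeR).

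On the T cell side 0 of 4 genes tested passed by edgeR, with 1 at an unadjusted p under 0.05 and 1 passing by DESeq2. Cd4, the coreceptor that binds class II, was at 2.78, 1.05 and 1.31 CPM in controls and 1.58, 0.823 and 0.797 CPM in *Mttp-IKO*, which overlap (log2 fold change -0.68, adjusted p = 0.426, edgeR). The gene that passed by DESeq2 was Cd28, the T cell receptor of Cd86 and Cd80, which went in the opposite direction to the members and was named after its values were seen. It was at 0.645, 0.527 and 0.812 CPM in controls and 1.10, 2.30 and 1.68 CPM in *Mttp-IKO*, without overlap (log2 fold change 1.35, adjusted p = 0.0920, edgeR).

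**Figure D5:**
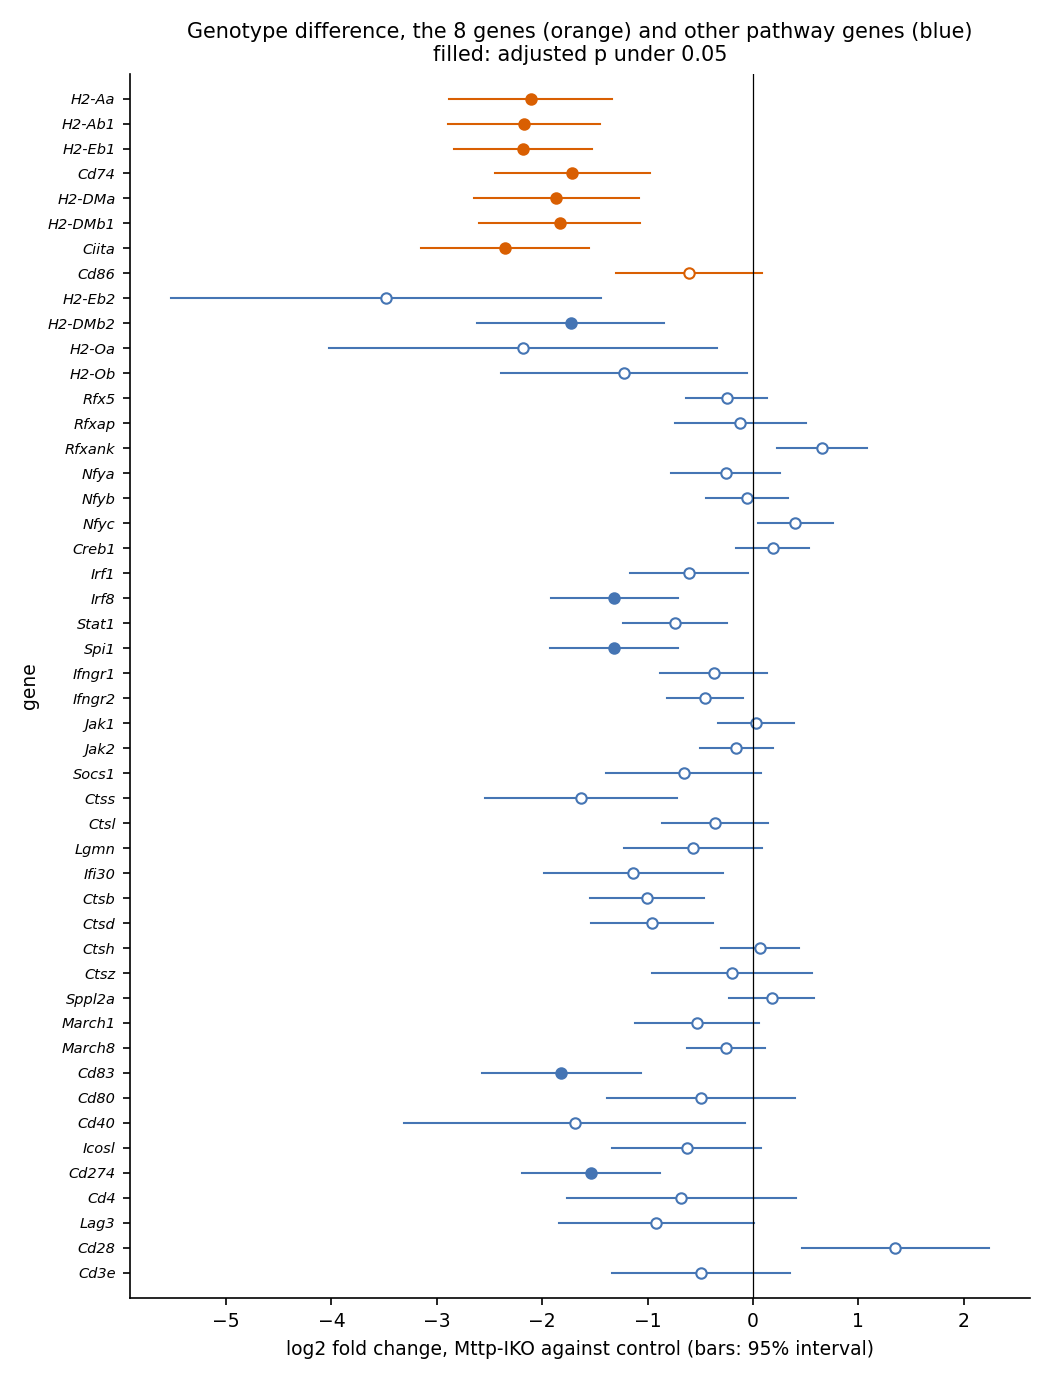
Log2 fold change with its 95% interval (horizontal axis, *Mttp-IKO* against control) of the 8 members (orange) and of the 40 further pathway genes tested, in order of role (blue), with filled points for an adjusted p under 0.05. The 7 members that passed lie between -2.36 and -1.71, and 5 of the further genes are filled, all to the left of 0.

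MHC class I, which presents peptides made inside nearly every cell, was measured for comparison. Of 13 class I pathway genes 0 passed by edgeR, with 6 at an unadjusted p under 0.05 (3977 of 17287 over all genes) and 1 passing by DESeq2, and the median log2 fold change was -0.22. H2-K1 differed by 0.099, H2-D1 by -0.051 and B2m, the light chain, by -0.22 (adjusted p = 0.852, 0.908 and 0.559, edgeR). Other genes of the list, named after their values were seen, lay farther from 0. The immunoproteasome subunits Psmb8, Psmb9 and Psmb10 differed by -0.77, -0.91 and -0.84 and the peptide transporter subunit Tap1 by -0.49, without overlap between genotypes (adjusted p = 0.172, 0.186, 0.0829 and 0.170, edgeR), and Psmb10 was the gene that passed by DESeq2. Erap1, which trims class I peptides, was higher in every *Mttp-IKO* pool (0.48, adjusted p = 0.152, edgeR). H2-K1 and H2-D1 are near-identical in parts and their counts are uncertain. With scaling to total counts, which shifts the median of all genes by -0.18, the value of H2-K1 turned to -0.080 and that of H2-D1 was -0.23. The difference in response between class I and class II genes was not itself tested.

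The genes whose profile over the 6 pools was nearest to the mean profile of the members were Ccdc80, Matn2, Evl, Cyp4f18 and Thbs2. Likeness was the root mean square difference of centred log2 CPM among 11791 protein-coding genes, and it was 0.0897 for Ccdc80, 0.101 for Matn2, 0.107 for Evl, 0.117 for Cyp4f18 and 0.119 for Thbs2. For the members themselves it ranged from 0.1005 (Cd74) to 0.318 (Ciita) for those that passed and was 0.624 for Cd86. When the profiles were centred within each genotype, so that only the spread between pools counted, 0 of these 5 genes were among the nearest 5.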

How the data were processed

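Liver RNA was depleted of ribosomal RNA and sequenced in 6 pools. The authors aligned reads with STAR 2.5.1a to the Ensembl release 76 assembly (GRCm38) and deposited raw counts of uniquely aligned, unambiguous reads per gene from featureCounts 1.4.6-p5. The deposited CPM and RPKM values follow from these counts in all 6 files, so only the counts were tested. The table of all pools held 276 repeated lines, which were dropped, and the same counts as the pool files. Reads with several best positions were not counted, which lowers near-identical paralogs.

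Pools were grouped by their labels. Genes were kept by filterByExpr (minimum count 10, minimum total 15), which left 17287, scaled by TMM (factors 0.898 to 1.11) and tested with edgeR 4.0.16 in R 4.3.3 (glmQLFit and glmQLFTest, Benjamini-Hochberg adjustment, threshold 0.05). The method was tested on simulated counts, in which no pool stood apart as several did here. CPM per kb uses the length of the merged exons. Exon overlaps between genes come from the exon positions given with the deposited counts, and the untranslated regions at promoters from GENCODE M21. Alternatives were other scalings and filters, DESeq2 1.42.0, limma-voom (limma 3.58.1), a replicate block, a correction of each library for its loess trend with gene length (span 0.3), and leaving out each pool.

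Members and gene lists were chosen with earlier results of these data known. Named genes were all members, listed genes past the threshold (up to 5 a role, smallest p first), H2-Ea-ps, H2-Oa, H2-Ob, H2-DMb2, Ctss, Ifi30, Cd4, Cd80, Cd40, B2m, H2-K1 and H2-D1, a selection of markers of cell lists, and the 5 genes nearest in profile with a mean log2 CPM of at least 1. Not every marker past the threshold was named. Of the other marker lists, counts lower and higher by edgeR were 1 and 0 of 3 for leukocytes, 0 and 0 of 7 for T cells, 0 and 0 of 3 tested for neutrophils, 0 and 0 of 5 for endothelial cells, 2 and 0 of 5 for stellate cells, 0 and 0 of 4 for cholangiocytes, 0 and 0 of 5 for hepatocytes and 0 and 0 of 2 tested for striated muscle.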

Additional observations from a re-analysis of the deposited data

How the results depend on the processing

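With all 6 pools, 7 members passed under each scaling, each filter, DESeq2, the replicate block and removal of the length trend, and 5 by limma-voom, where H2-DMa and H2-DMb1 had adjusted p of 0.0581 and 0.0564. Leaving out each pool gave 0 to 7 members, 0 to 7 further pathway genes, 0 to 1 class I genes and 0 to 892 genes in all, compared with 694. The total fell to 24 without control pool 1, 21 without control pool 3, 55 without *Mttp-IKO* pool 1 and, by edgeR, 0 without *Mttp-IKO* pool 2, where 3221 genes had an unadjusted p under 0.05. Fewer samples were in each of these fits. Of the member fold changes, 0 changed sign under any alternative.

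The further pathway genes numbered 8 with total counts, 13 by DESeq2 (11 lower, 2 higher), 2 by limma-voom and 3 with the replicate block, compared with 5, and the class I genes 1 with total counts, DESeq2 or the length trend removed, compared with 0. All genes called numbered 1995 by DESeq2 and 428 by limma-voom, and 592 with the replicate block. The cause was not tested. Same-numbered pools did not pair throughout (correlations of deviations 0.139, 0.112 and 0.00698), and pools share only a number. The ratio of H2-Ab1 to a leukocyte gene changed by -1.02 on the log2 scale with Ptprc and by 0.63 with Itgax, a setting chosen after seeing the data, which reversed it. Promoters with both cores numbered 1368 within 30 bases, 19365 with either core anywhere, and, in settings added after seeing the data, 758 with GNAAC before ATTGG and 116 at the narrow spacing. The 5 nearest genes shared 0 with those found after centring within genotypes. For genes with few reads, such as H2-Oa and H2-Ob, counting error limits the precision.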
